A study of Mus musculus with 8 samples.

Results

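Long intergenic non-coding RNAs (lincRNAs) are transcribed from stretches of the genome between protein-coding genes and carry no long open reading frame. Many are present at a low level and in few tissues, and some act in the nucleus, where they bind chromatin regulators. The array used here names most lincRNA probes only by a genomic interval and a strand on mouse build mm9, without a transcript, and an interval of this kind can be far longer than the RNA that a probe reports. The longest of them, intervals whose end lies 40000 bases or more from the start, are described here. They were read from the interval names alone, without any measured value, and gave 2982 probes on 694 interval and strand combinations in 468 intervals, out of 16181 lincRNA probes and 4607 combinations on the array.

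Whole mouse embryos were collected at day 8.5 of gestation (E8.5), when the heart, blood and neural tube are forming. Every one of the 8 embryos carried 1 copy of the hypomorphic allele Eedl7Rn5-1989SB of *Eed* (background C57bl6/129), and the mothers were wild type. The father was homozygous for the allele (HOM father, Eed hypo/hypo) in 4 embryos and heterozygous (HET father, Eed hypo/wt) in 4, with 2 females and 2 males in each group. EED is a core protein of Polycomb Repressive Complex 2 (PRC2), which places the repressive mark H3K27me3 on chromatin, and the comparison asks whether lower EED function in a father alters transcription in offspring that carry the same genotype. Each embryo was hybridised to 1 Agilent single-colour array. Each father group was hybridised on a slide of its own, so slide and father cannot be told apart in any result below. The study used fewer sires than embryos in a group, so p-values measure the spread between embryos and not between fathers. Its HOM and HET sires were brothers, but the sire of each embryo is not given, so the groups were compared unpaired. HOM replicates 3 and 4 share the leading number of their sample identifier, as do HET replicates 1 and 2. The labels do not say what that number stands for.

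Signals are given as log2 of the processed intensity minus the 75th percentile of the array, so that 0 is that percentile and each unit is a 2-fold step. Between 51.9% and 60.8% of non-control spots were well above background on each array, with the highest share in HOM replicate 1. The *Eed* probe changed by 0.01 ± 0.05 between the groups (SE, limma adjusted p = 0.904). The allele is a point mutation, so this RNA level is not a check of the genotype of the embryos or of the fathers. Of the markers of embryonic mesoderm, heart, neural tissue, primitive blood and yolk sac endoderm, every listed gene was above background and none was called. The summed primitive blood markers lay between 8.73 and 9.07 in HOM and between 9.11 and 9.26 in HET embryos, without overlap. The sums of the other tissues named here overlapped. A probe of *Tbx6* (-0.32, limma adjusted p = 0.034) and that of *Myl7* (-0.25, adjusted p = 0.0396) were lower. A probe of *Sox1* was higher (0.41, adjusted p = 0.0215), and its second probe changed by -0.16 (adjusted p = 0.184). Among markers of maternal and placental tissue, the decidual gene *Prl8a2* lay between 0.28 and 4.45 in HOM embryos and between -3.99 and 1.89 in HET embryos (change 2.96 ± 1.55 SE, adjusted p = 0.215), while the decidual gene *Prl3c1* was below that detection limit on every array. The summed trophoblast markers lay between 3.06 and 3.74 in HOM and between 3.70 and 4.62 in HET embryos, with 2 of 3 genes tested and *Tpbpa* undetected on every array. The 3 tested probes of *Gcm1*, a transcription factor of the placental labyrinth, changed by -1.07, -0.99 and -0.35 (adjusted p = 0.0213, 0.0518 and 0.0964), and the 2 of *Prl3d1*, a hormone gene of trophoblast giant cells, by 1.88 and 1.06 (adjusted p = 0.208 and 0.367), so the genes pointed opposite ways and none was called. The part of these tissues in the results below was not tested. In whole embryos, fewer cells of a type and less RNA per cell cannot be told apart.

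The long intervals were spread over 20 chromosomes, with 344 forward and 350 reverse strands, and 226 intervals had probes on both strands. Their median length was 66552 bases, from 40095 to 7128486 bases, and 52 combinations were longer than 200 kb. Each carried a median of 4 probes and at most 10. The longest, chr7:39351858-46480344 on the reverse strand, had a single probe that did not pass the expression filter, and none of the 3 probes of chr5:99726262-100264512 on the reverse strand (538250 bases) passed it. Of the 468 intervals, 329 overlapped another interval of the array, so neighbouring names are not always separate loci.

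Of these probes 937 of 2982 (31.4%), passed the expression filter, which asks for a signal well above background and above the 20th percentile on at least 4 of the 8 arrays. Over the whole array 53.4% of probes passed. At least 1 probe was tested on 426 of the 694 combinations (61.4%). Among these, 184 rested on a single tested probe and 242 on several, and 268 had none. On no array were 1452 of the 2982 probes well above background. The share of long-interval probes well above background was 40.6%, 31.6%, 31.6% and 33.3% in HOM replicates 1 to 4 and 37.0%, 31.8%, 28.3% and 28.9% in HET replicates 1 to 4. The groups overlapped, and replicate 1 was the highest array of both. The same ranges over all probes were 53.2 to 59.7% and 50.7 to 57.4%.

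To determine how the long intervals differed between embryos of HOM and HET fathers, each probe was fitted with limma over all 29720 tested probes and called where it passed an adjusted p of 0.01 and changed 2-fold or more. In embryos of HOM fathers 35 of the 937 tested long-interval probes were higher (3.74%) and 0 were lower. Over all tested probes 1.22% were called higher and 0.0269% lower. In lincRNA intervals of 5 to under 40 kb 80 of 3107 probes were higher (2.57%), in intervals under 5 kb 19 of 1168 (1.63%), and among probes without an interval name 228 of 24508 (0.930%). At an unadjusted p below 0.05, 356 long-interval probes were higher (38%) and 64 lower (6.83%), beside 17.2% and 17.9% over all tested probes. With an adjusted p below 0.05 and no fold limit, 278 (29.7%) were higher and 24 (2.56%) lower, beside 12.2% and 9.08% over all tested probes. In intervals of 5 to under 40 kb 24.5% were higher and 3.60% lower, and under 5 kb 23.5% and 3.77%. The groups did not overlap for 289 probes higher in HOM embryos and 43 lower, or 30.8% and 4.59%, beside 13.9% and 13.5% over all tested probes. These shares were 26.5% and 5.89% at 5 to under 40 kb, and 24.0% and 5.39% under 5 kb. No test of the difference between these classes was made.

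**Figure D1:**
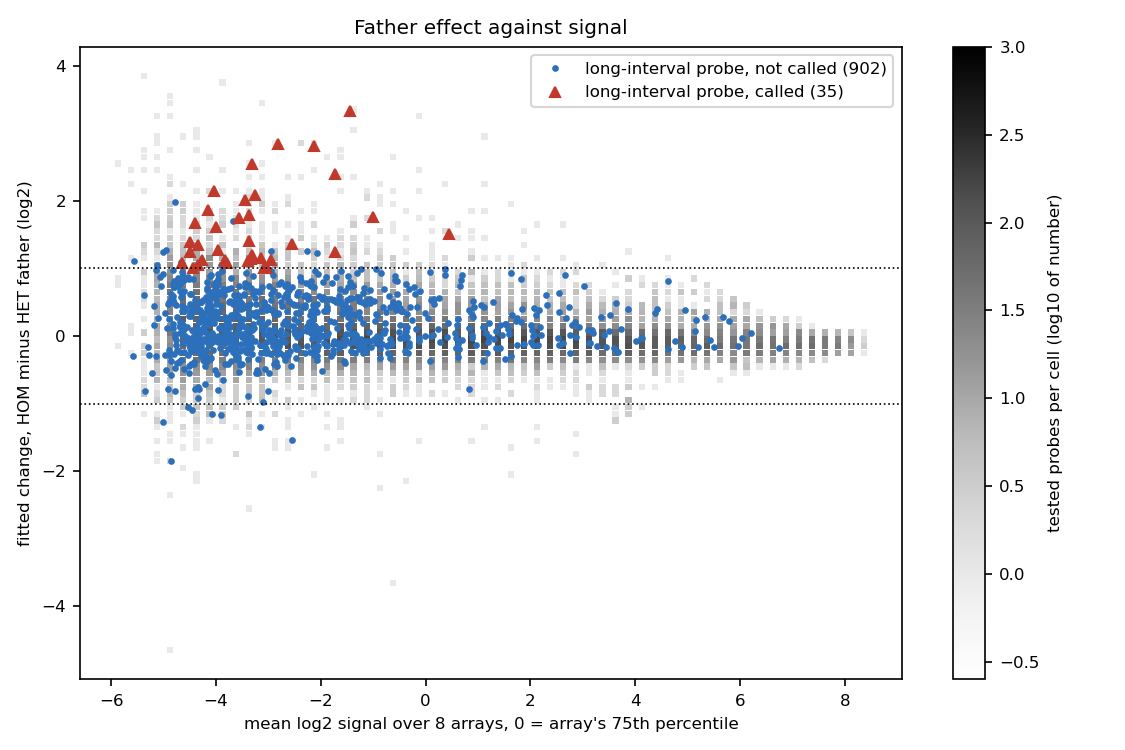
Fitted change between father groups (HOM minus HET, log2) against the mean log2 signal over 8 arrays. Grey cells hold the number of all 29720 tested probes, blue points are the 902 long-interval probes not called, red triangles are the 35 called, and dotted lines mark 2-fold. All called long-interval probes lie above the upper line, and 34 of them have a mean signal below 0.

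The filter and the level of the probes bear on these counts. Of the 35 called probes, 17 passed the background limit on each of the 8 arrays, and the others were below it in at least 1 HET embryo, so they passed the filter through the group in which they were high. When only probes well above background on all 8 arrays were fitted, 18 of 705 long-interval probes were higher (2.55%), beside 0.838% of all such probes. The median change of the tested long-interval probes was 0.16 and that of all tested probes -0.03. Without any filter the medians were 0.01 and -0.02, and 35 of 2982 long-interval probes were higher (1.17%, beside 0.625% of all probes). Subtracting the median of each array in place of the 75th percentile moved the median of all probes by -0.19 and the count of higher long-interval probes to 24 (2.56%, beside 0.744% of all probes). It shifts every probe of an array alike, so the difference of 0.18 between both medians could not change. With quantile normalisation that difference was 0.09 and with background correction 0.11. Background correction with an offset of 50 left 13 calls (1.39%, beside 0.444% of all probes), and a block by replicate number left 18 (1.92%, beside 0.723%).

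Long-interval probes were dim, with a median signal of -2.94, beside -0.57 over all tested probes. Calls were more frequent among dim probes on the array as a whole, so they were also counted by signal. Below a mean signal of -4, 10 of 240 long-interval probes were called higher (4.17%), beside 3.32% of all probes. Between -4 and -3, 16 of 216 were called (7.41%), beside 2.34%. From -3 to -2 the shares were 2.50% and 1.58%, from -2 to -1 they were 3.51% and 1.72%, and at -1 and above 0.483% and 0.334%. In shorter lincRNA intervals the shares were 3.38%, 1.49%, 2.56%, 2.64% and 1.52% from the dimmest range to the brightest, which was above the share of long intervals from -3 to -2 and at -1 and above. The 3 brighter ranges held 4 or fewer long-interval calls each.

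**Figure D2:**
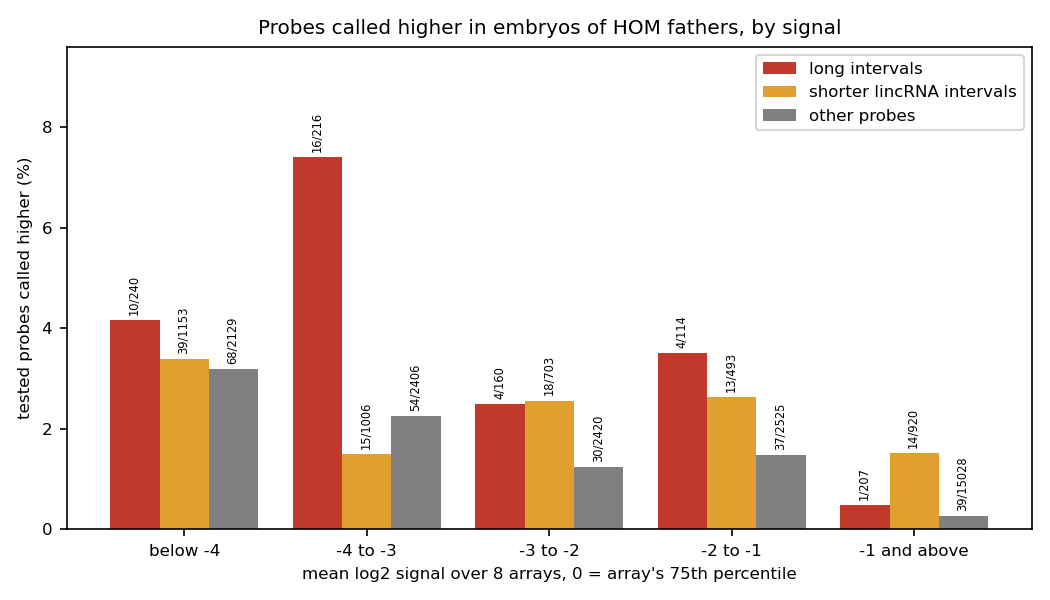
Share of tested probes called higher in embryos of HOM fathers (percent) in 5 ranges of mean log2 signal, for long intervals, shorter lincRNA intervals and all other probes. The numbers over the bars are called and tested probes. Long intervals reach 7.41% between -4 and -3, where other probes reach 2.24%.

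Interval values were taken as the mean of the tested probes of an interval and strand, and fitted over 27033 features in which every other probe stood for itself. Of 426 long-interval combinations 19 were higher in HOM embryos (4.46%) and 0 lower, beside 1.12% and 0.0296% over all features. Of these 19, 13 rested on a single tested probe and 6 on more. At an adjusted p below 0.05 there were 151 higher (35.4%) and 7 lower (1.64%), beside 11.8% and 9.82% over all features, and 34.3% of the combinations of 5 to under 40 kb and 31.4% of those under 5 kb were higher. At an unadjusted p below 0.05 there were 202 higher (47.4%) and 19 lower (4.46%), beside 16.6% and 18.7% over all features. The fitted change was above 0 in 310 of 426 (72.8%), beside 44.5% over all features, 73.5% of the lincRNA combinations of 5 to under 40 kb and 66.6% of those under 5 kb. Without the filter, where undetected probes enter each mean, 4 combinations were called, and after background correction with an offset of 50 there were 5. The shares over all features under these settings were not counted.

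The largest change of an interval was that of chr12:111287772-111333890 on the forward strand (46118 bases), the only combination with 3 called probes. The mean of its 3 tested probes was -0.67, -0.65, -0.91 and -0.76 in HOM replicates 1 to 4 and -3.0004, -3.32, -3.37 and -3.18 in HET replicates 1 to 4. The groups were far apart and each was narrow, with means of -0.75 ± 0.12 and -3.22 ± 0.17 (SD, n = 4), or 5.54-fold (adjusted p = 2.68e-05). All 3 probes were well above background in every embryo. Probe A_30_P01030769 read -0.12, 0.03, -0.19 and -0.22 in HOM embryos and -1.68, -2.08, -1.99 and -1.81 in HET embryos. Probe A_30_P01026947 changed by 2.81 ± 0.19 (SE) and A_30_P01024078 by 2.84 ± 0.12, both more than the 1.77 ± 0.10 of A_30_P01030769 (adjusted p of the differences 0.003 and 0.0084). Thus the probes shared a direction and not a size. The other 7 probes of this strand did not pass the filter, and neither did any probe of the reverse strand. A 1357-base lincRNA interval inside it on the same strand, chr12:111322030-111323387, changed by 0.64 over 2 tested probes (adjusted p = 0.00478), short of 2-fold.

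Single intervals with 1 tested probe gave the next changes. The forward strand of chr9:31390809-31591204 (200395 bases) had its only probe at -0.31, -0.58, -0.60 and -0.63 in HOM embryos and at -2.52, -3.22, -3.09 and -2.85 in HET embryos. This was a 5.25-fold difference with no overlap (adjusted p = 0.000141), measured above background in all 8 embryos. The forward strand of chr7:49715933-49771497 (55564 bases) read -3.12, -3.23, -2.77 and -2.76 in HOM and -4.79, -4.64, -5.30 and -5.71 in HET embryos. The difference was 4.40-fold (adjusted p = 0.00118), but only 2 HET embryos were above background and 9 of its 10 probes were not tested. Under the replicate block its adjusted p was 0.0177. Over all alternatives its smallest change was 0.0997 and its highest limma adjusted p 0.937.

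The reverse strand of chr4:89032648-89133273 (100625 bases) read -2.27, -2.10, -2.31 and -2.17 in HOM and -4.07, -4.09, -4.28 and -4.76 in HET embryos, a 4.25-fold difference (adjusted p = 0.000219). The forward strand of chr1:84947500-85045150 (97650 bases) read -2.55, -2.30, -2.46 and -2.58 in HOM and -3.85, -4.42, -4.20 and -4.57 in HET embryos, a 3.45-fold difference (adjusted p = 0.000369). In both the groups were separate and 3 of 4 HET embryos were above background. Each rested on 1 tested probe, out of 1 and 5 on the array.

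Intervals in which several probes were called were fewer, 5 of the 29 combinations with a called probe. On the forward strand of chr6:125330524-125410249 (79725 bases) both tested probes were called, of which A_30_P01020422 was above background in every embryo and A_30_P01025331 in 1 HET embryo only. Their mean was -2.95 ± 0.19 in HOM and -4.36 ± 0.33 in HET embryos (SD, n = 4), or 2.65-fold (adjusted p = 0.00159). On the forward strand of chr4:82156098-82196298 both tested probes were called at 1.00 ± 0.13 and 1.08 ± 0.16 (SE), each next to the 2-fold limit. At 40200 bases it also lies near the length limit. Of the forward strand of chr5:106982442-107045717 (63275 bases), 2 of 5 tested probes were called, at 1.75 and 1.87 (the latter above background in 1 HET embryo), and the other 3 changed by 0.35, 0.60 and 0.47. All 5 pointed the same way, and the interval mean rose by 1.01 ± 0.09 (SE, adjusted p = 0.00036), just past the limit. It fell short of 2-fold, at between 0.94 and 0.997, when HOM replicate 3 or 4 or HET replicate 2 or 3 was left out, as did chr4:82156098-82196298 (0.96) without HET replicate 3. Under the replicate block chr6:125330524-125410249 had an adjusted p of 0.0217.

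**Figure D3:**
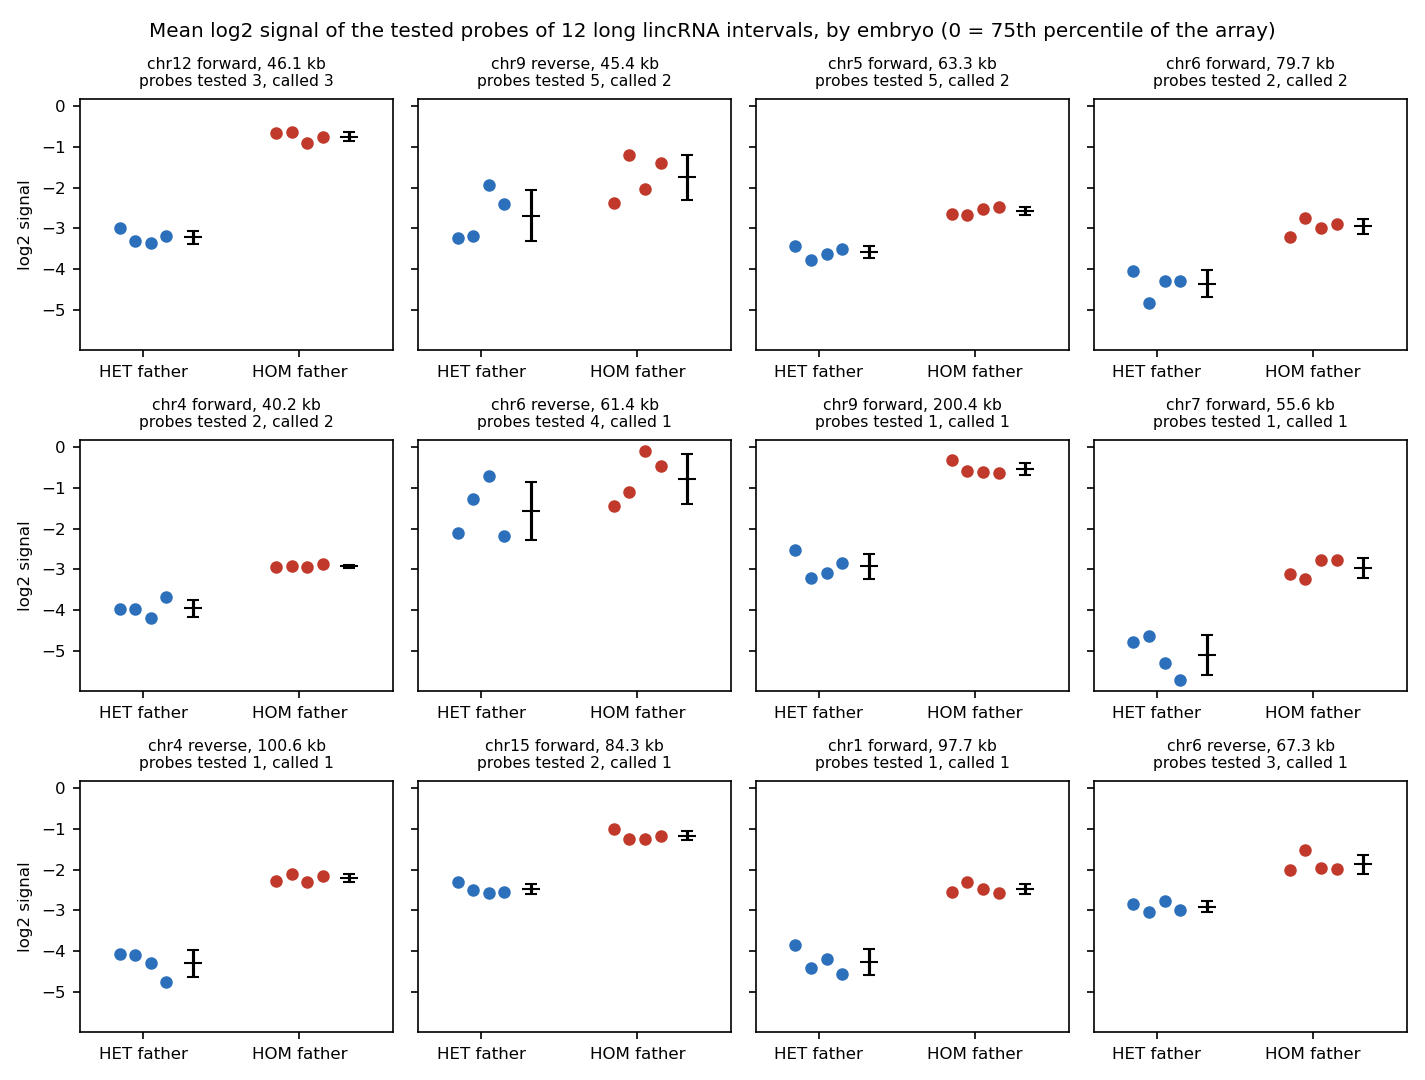
Mean log2 signal of the tested probes of the 12 combinations with the most called probes, for each embryo (points, replicates 1 to 4 from left to right) with group mean and SD (black). Titles give chromosome, strand and length. The groups do not overlap in 10 panels, and they overlap in the chr9 reverse panel of 45.4 kb and the chr6 reverse panel of 61.4 kb, where other probes entered the mean.

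In some intervals the probes did not move together. The largest change of any long-interval probe was that of A_30_P01028744 on the reverse strand of chr6:67155508-67216941 (61433 bases). It read 0.30, 0.28, 0.13 and 0.18 in HOM embryos and -2.98, -3.15, -2.77 and -3.51 in HET embryos, a 10.01-fold difference (adjusted p = 3.15e-05), and was above background in every embryo. On the same strand of this interval, A_30_P01018807 read 1.49, 1.74, 1.58 and 1.69 in HOM and 1.52, 1.47, 1.48 and 1.34 in HET embryos. The 2 probes differed in their change by 3.15 ± 0.14 (SE, adjusted p = 2.78e-05). A_30_P01018444 changed by 0.20 ± 0.08, and A_30_P01024985, near background, by -0.54 ± 1.57. The interval mean was not called (0.79 ± 0.41, adjusted p = 0.216).

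The reverse strand of chr9:81537835-81583227 (45392 bases) showed the same split. A_30_P01027016 read 1.07, 1.31, 1.19 and 1.20 in HOM and -0.35, -0.38, -0.26 and -0.29 in HET embryos, and A_30_P01026333 read -2.02, -2.01, -2.16 and -2.01 in HOM and -4.65, -4.77, -4.68 and -4.25 in HET embryos. Both were separated between the groups, by 2.85-fold and 5.80-fold. A_30_P01029628 changed by 0.11 ± 0.07 and differed from A_30_P01027016 (adjusted p = 0.000217). A_30_P01033032 changed by 0.43 ± 0.14 and also differed from it (adjusted p = 0.00738). A_30_P01029810 was above background in 4 of 8 embryos and spanned -7.94 to -1.15, so the interval mean overlapped between the groups (0.94 ± 0.37 SE, adjusted p = 0.109).

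A pair of reverse-strand intervals lay close together on chromosome 6. The interval chr6:67052066-67119366 (67300 bases) ended 36142 bases before chr6:67155508-67216941. Its probe A_30_P01029703 read -3.60, -3.55, -3.56 and -3.52 in HOM and -5.01, -5.33, -5.22 and -5.39 in HET embryos (3.20-fold, adjusted p = 4.91e-05), with 1 HET embryo above background, so that it passed the filter through the HOM group. A_30_P01027254 of the same strand changed by 0.16 ± 0.06 and the pair differed by 1.52 ± 0.10 (adjusted p = 0.000171). The mean of its 3 tested probes was called (1.03 ± 0.12, adjusted p = 0.00142), but not without HOM replicate 2 (0.92) or HET replicate 2 (0.99), nor under the replicate block (adjusted p = 0.0183). On the forward strand of chr15:96032592-96116907 (84315 bases), A_30_P01021800, above background in 2 HET embryos, changed by 2.01 ± 0.18 and A_30_P01032023 by 0.62 ± 0.06 (adjusted p of the difference 0.0084). Their mean rose 2.48-fold, from -2.48 ± 0.12 to -1.17 ± 0.11 (SD, n = 4).

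Over all long intervals, the brightest tested probe of each combination was compared with each of its other tested probes in 511 pairs. The changes had the same sign in 326 pairs and differed at an adjusted p below 0.01 in 32, while 4.28% of 2687 such pairs over all lincRNA intervals differed. At an unadjusted p below 0.05, 172 of the 511 differed, and the share of all 2687 pairs at that limit was not counted. Of the 242 combinations with several tested probes, all probes pointed up in 94, all pointed down in 33, and the directions were mixed in 115. Of the 29 combinations with a called probe, 13 had no other tested probe to set beside it and 16 had at least 1.

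**Figure D4:**
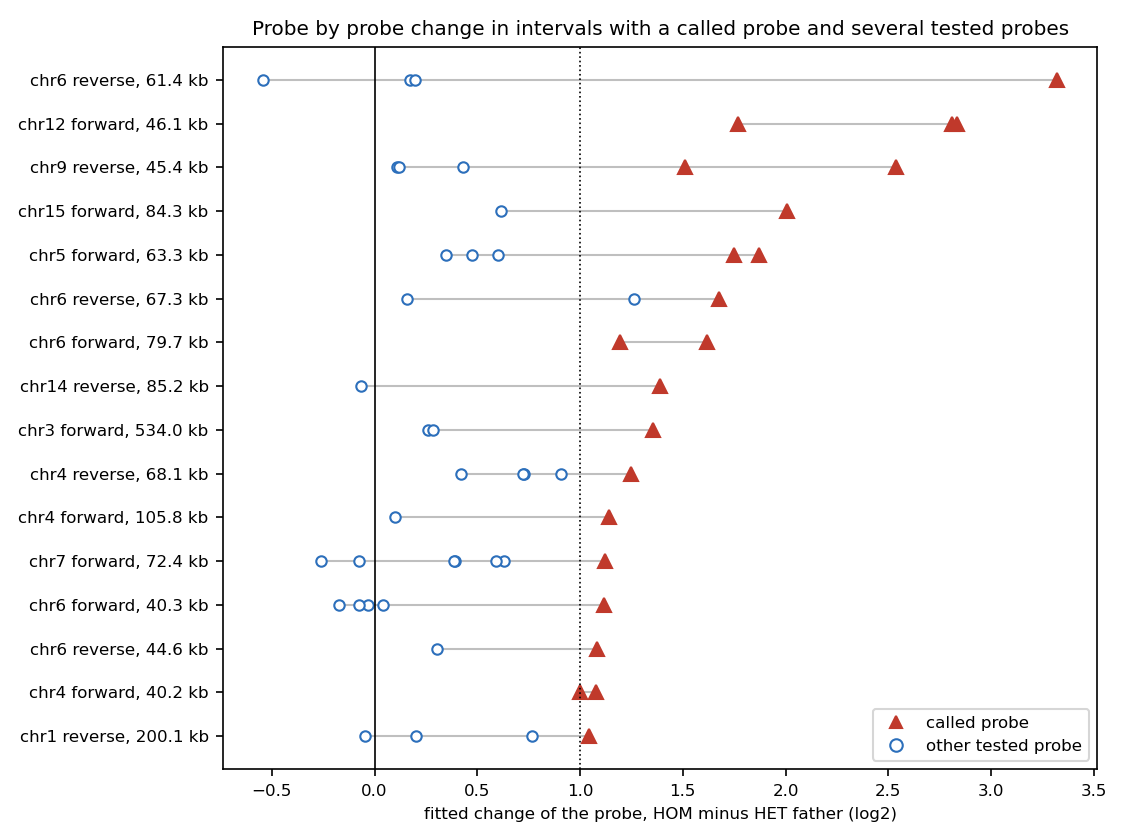
Fitted change (HOM minus HET, log2) of every tested probe on the 16 combinations that held a called probe and at least 1 other tested probe. Triangles are called probes, open circles other tested probes, the dotted line is 2-fold, and labels give chromosome, strand and length. All tested probes were called on 3 combinations, and on the 61.4 kb chr6 reverse strand the probes run from -0.54 to 3.32.

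Another 17 combinations had 1 called probe each, with changes from 1.00 to 1.41. They included the reverse strand of chrX:18744367-18853992 (1.00, adjusted p = 0.00346), the forward strand of chr10:72726649-72799726 (1.24, adjusted p = 8.83e-05) and the forward strand of chr6:11996975-12037300, where the called probe rose by 1.12 and the other 4 tested probes changed by between -0.17 and 0.04. These examples were chosen after their values were seen. On the reverse strand of chr14:61240427-61325677, the probe read -3.87, -3.79, -3.91 and -3.66 in HOM embryos and was not well above background in any HET embryo. It was at least 2.48-fold higher, taking the dimmest detected signal of each array or the probe's own signal, if that was higher, as the bound. The probe passed the filter through the HOM group, and its limma adjusted p (0.000947) was fitted on HET values below detection.

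Strand was compared in the 112 intervals with a tested probe on both strands. The forward and reverse changes had the same sign in 79, and both were above 0 in 69. They differed at an adjusted p below 0.01 in 11 intervals, and over all lincRNA intervals 6.26% of 463 did. At an unadjusted p below 0.05, 38 differed, and the share of all 463 at that limit was not counted. Among the 29 combinations with a called probe, 22 had the opposite strand on the array and 16 had it tested. The opposite strand was above 0 in 15 of these 16, beside 72.8% of all tested long combinations. None was called, and 7 of the 16 pairs differed. These pairs were picked by a called probe on 1 strand, so the 7 cannot be set beside the share of all intervals. On chr4:89032648-89133273 the reverse strand changed by 2.09 and the forward strand, over 5 tested probes, by 0.53 (difference 1.56 ± 0.17 SE, adjusted p = 0.000886). On chr5:106982442-107045717 the forward strand rose by 1.01 while its reverse strand changed by -0.03 (difference 1.04 ± 0.10, adjusted p = 0.000487). On chr6:125330524-125410249 the strands changed by 1.41 and 0.93, without a called difference (adjusted p = 0.048).

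**Figure D5:**
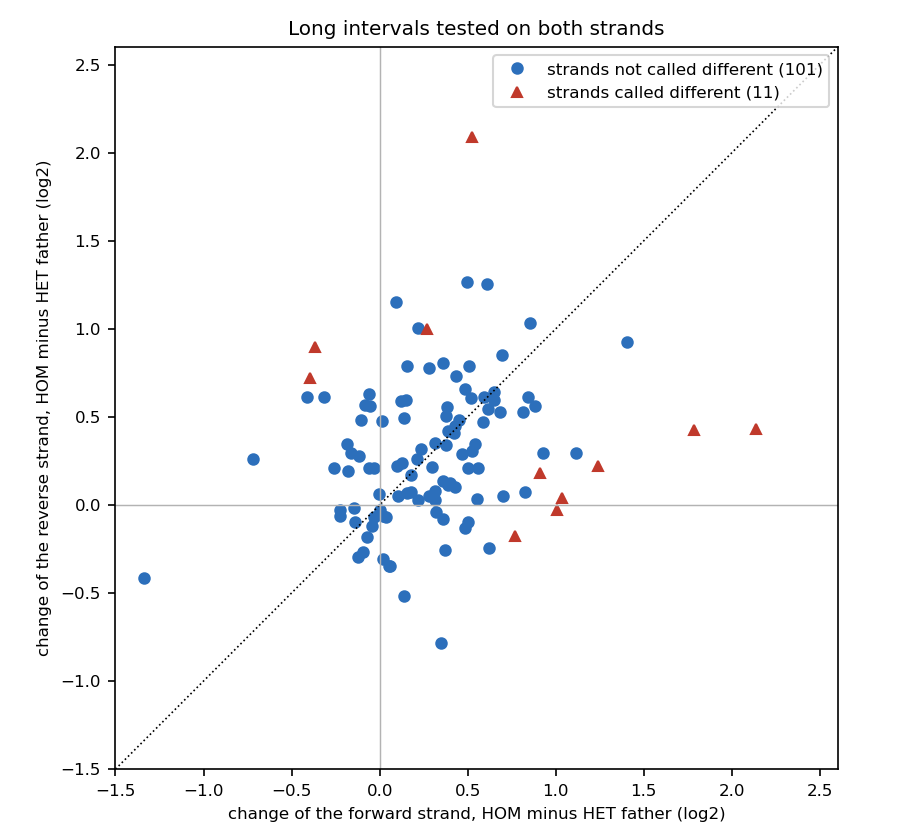
Fitted change of the forward strand against that of the reverse strand (HOM minus HET, log2) in the 112 long intervals tested on both strands. The dotted line marks equal change, and triangles are the 11 intervals whose strands differed at an adjusted p below 0.01. In 69 intervals both changes are above 0.

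Intervals were also chosen by the signal of the brightest probe on the dimmer strand. Their other probes could be dim, and on the forward strands of chr6:145647711-145756861, chr15:79764481-79809909, chr14:33923944-34003394 and chr19:5771425-5848475 1 tested probe each was above background in only 1 or 2 HET embryos. On chr6:145647711-145756861 (109150 bases) all 10 tested probes had changes above 0, on average 0.45 ± 0.09 (SE) on the forward and 0.48 ± 0.14 on the reverse strand, and the difference of -0.03 ± 0.19 was not called (adjusted p = 0.927). On chr15:79764481-79809909 the strands changed by 0.84 ± 0.17 and 0.61 ± 0.08, and on chr14:33923944-34003394 by 0.12 ± 0.46 and 0.59 ± 0.08. The forward mean of the last joined the bright probe A_30_P01021530, which changed by 0.39 ± 0.08 (adjusted p = 0.0166), and A_30_P01027284, which was above background in 2 HOM and 2 HET embryos and changed by -0.14 ± 0.88. None of these interval means reached 2-fold. On chr16:8738782-8830148 (91366 bases) the forward probe read 1.08, 1.25, 1.09 and 1.16 in HOM and 0.17, 0.19, 0.28 and 0.29 in HET embryos, a change of 0.91 ± 0.06 (adjusted p = 0.000131), while 6 reverse probes averaged 0.18 ± 0.07. These strands differed (adjusted p = 0.00401). On chr19:5771425-5848475 the reverse probe read 0.79, 0.19, 0.32 and 0.40 in HOM and 0.79, 1.62, 0.66 and 1.78 in HET embryos, with overlapping groups (-0.79 ± 0.28, adjusted p = 0.0815), and 7 forward probes averaged 0.35 ± 0.14. On chr6:116092274-116144199 the strands changed by 0.21 ± 0.07 and 0.03 ± 0.09.

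Of the 6 combinations with the brightest probes none was called. The brightest, probe A_30_P01023523 on the forward strand of chr6:116092274-116144199, read 6.53, 6.65, 6.64 and 6.80 in HOM and 7.01, 6.72, 6.81 and 6.79 in HET embryos (-0.18 ± 0.08 SE, adjusted p = 0.169). The forward strand of chrX:18744367-18853992 stood at 5.90 ± 0.16 and 5.69 ± 0.12 (SD, n = 4), and that of chr4:94742359-94822969 at 5.82 ± 0.23 and 5.54 ± 0.14. The brightest probes of chr13:108548345-108679004, chr14:77006215-77063293 and chr2:168804720-168854970, all on the reverse strand, changed by 0.05, -0.03 and -0.16. The means of all their tested probes changed the opposite way, by -0.29, 0.21 and 0.21 (limma adjusted p = 0.244, 0.0252 and 0.0742). Only the mean of chr14:77006215-77063293 did not overlap between the groups. An overlapping forward interval on chromosome 4, chr4:94719930-94825776, held a called probe, A_30_P01033576, at 1.14 (adjusted p = 0.00178), and a second tested probe at 0.10.

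No long interval was called lower. The 7 combinations that were lower at an adjusted p below 0.05 changed by between -0.86 and -0.18. The largest of these was on the reverse strand of chr1:193875525-193978800, which read 0.52, 0.66, 0.63 and 0.62 in HOM and 0.79, 1.95, 1.90 and 1.24 in HET embryos. The groups were separate, but the HET embryos spread over more than a 2-fold range (-0.86 ± 0.25 SE, adjusted p = 0.0438). Without HET replicate 1 its change was -1.09 and it was called (adjusted p = 0.0085). The reverse strand of chr12:85210777-85262127 was lower by a small and even step, from -0.96, -1.03, -0.98 and -0.94 in HOM to -0.74, -0.66, -0.71 and -0.62 in HET embryos (-0.30 ± 0.05, adjusted p = 0.00459). Both were chosen after their values were seen.

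Called probes were found in each range of length. There were 11 of 194 in intervals of 40 to 50 kb (5.67%), 2 of 206 at 50 to 60 kb (0.971%), 11 of 226 at 60 to 80 kb (4.87%), 8 of 176 at 80 to 120 kb (4.55%) and 3 of 135 above that (2.22%). Just inside the limit, the forward strand of chr5:111612191-111652286 (40095 bases) changed by 0.29 ± 0.38 on 1 tested probe. Just outside it, the forward strand of chr10:83185606-83225506 (39900 bases) changed by -0.20 ± 0.07 on 3 probes, and chr11:117768049-117807949 (39900 bases) had no tested probe. Among the 3 longest, only the forward strand of chr3:34003359-34537330 (533971 bases) was tested, with 1 of 3 probes called (1.36 ± 0.22) and the others at 0.26 and 0.28. Called combinations lay on 15 chromosomes, 9 of the 29 on chromosomes 4 and 6, with 16 forward and 13 reverse. Chromosomes 4 and 6 were picked because they held the most, and they held 25 and 34 of the 426 tested combinations. On the X chromosome 1 of 34 tested probes was called, and their median change was -0.05.

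Within 100000 bases of the called combinations, 33 neighbouring lincRNA combinations were tested. On the same strand 10 of 14 were above 0, and on the opposite strand 15 of 19, beside 72.8%, 73.5% and 66.6% of the long, middle and short lincRNA combinations as a whole. On the same strand 3 neighbours held a called probe, and 2 of these were chr6:67052066-67119366 and chr6:67155508-67216941, each counted as the neighbour of the other.

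Sex was compared with father as a covariate. No long-interval probe was called by sex, beside 0.0606% of all tested probes, and 70 of 937 had an unadjusted p below 0.05. The share of all tested probes at that unadjusted limit was not counted for sex. A different father effect in female and male embryos was called by limma for no probe on the array (0%). At an unadjusted p below 0.05 this term counted 35 long-interval probes and 1339 of 29720 overall. With 2 embryos of each sex per group the precision of this term is low.

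Named long non-coding RNA genes were listed for comparison, among them genes that act in X inactivation, imprinting and the nucleus. No gene annotation of the intervals was used, so some of these genes may lie inside a long interval. Of 40 genes 24 were on the array by RefSeq name and 20 were tested over 28 probes, and none was called. At an adjusted p below 0.05, 1 probe was higher, that of *Dleu2* (0.49 ± 0.09 SE, adjusted p = 0.0104), and 1 was lower, a probe of *Kcnq1ot1*, the antisense RNA of an imprinted domain (-0.57 ± 0.11, adjusted p = 0.00893), while a second *Kcnq1ot1* probe changed by 0.22 ± 0.13. *Malat1*, an abundant nuclear RNA, changed by -0.76 ± 0.30 (adjusted p = 0.11). *Neat1*, the RNA on which nuclear paraspeckles form, changed by 0.43 ± 0.14 (adjusted p = 0.0622). Their median change was -0.05 over the 28 probes.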

How the data were processed

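Gene expression was measured in 8 E8.5 mouse embryos on single-colour Agilent 8x60K arrays. Per the labels, Cy3-labelled cRNA was made from 0.2 µg of RNA per embryo. The deposited intensity values are those the authors obtained with Agilent Feature Extraction 11.0.1.1, which subtracts background, with no normalisation between arrays. Other deposited values, flags of 0 or 1, gave detection and outliers. The same intensities, within 0.497%, stand in a series table of the authors. Coordinates are those of the files (mm9). No genome of that build was used, so no sequence and no gene annotation of the intervals is given.

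Here, log2 signals were scaled to the 75th percentile of each array, outlier spots were left out and spots of a probe were averaged. Of 55681 probes, 29720 were tested with limma 3.58.1 in R 4.3.3 (two-sided, Benjamini-Hochberg over all features), after a test on simulated data. The limits (adjusted p below 0.01, 2-fold) are the study's. Probe pairs and strands were compared through the fit of their difference, called at an adjusted p below 0.01. Groups and sex came from the labels, and 27235 probes were matched to RefSeq names (GRCm38.p6). The number of arrays limits the precision. Named combinations were the 12 with the most called probes (ties by size of change), the 6 brightest, the 6 intervals with the brightest dimmer strand, and those at the length limit or longest. The members, lists and rules were chosen with earlier results of these data known, and the 100000-base window after seeing the data. Background correction used gMedianSignal, since the mean signal is not in the tables used here. Alternatives were other scalings, background correction, filters, estimation, covariates, blocks, the authors' table and leaving out each array.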

Additional observations from a re-analysis of the deposited data

Results flagged for a closer look

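In 6 of the 62 groups of 4 embryos examined for the named intervals and for detection, 1 embryo stood apart from the other 3 by more than Dixon's 95% limit for 4 values. Chance alone flags about 1 in 20 groups, or about 3.1 of 62. On the forward strand of chr9:31390809-31591204, HOM replicate 1 was at -0.305 and the other HOM embryos between -0.63 and -0.57. On the reverse strand of chr6:67052066-67119366, HOM replicate 2 was at -1.52 and the others between -2.02 and -1.97. On the reverse strand of chr16:8738782-8830148, HET replicate 1 was at -1.64 and the others between -1.83 and -1.81. On the forward strand of chr15:79764481-79809909, HOM replicate 1 was at -1.62 with the others between -1.11 and -1.07, and HET replicate 4 was at -1.65 with the others between -2.26 and -2.16. On the reverse strand of chr14:33923944-34003394, HOM replicate 4 was at -0.166 and the others between -0.42 and -0.39. The cause of these values was not tested.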

How the results depend on the processing

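At an adjusted p below 0.01 and 2-fold, no long-interval probe or combination was lower under any alternative apart from the 2 named below. Leaving out each array in turn gave between 27 and 37 higher probes and between 13 and 19 higher combinations. It gave 0 lower probes throughout and between 0 and 1 lower combinations, the 1 being chr1:193875525-193978800 on the reverse strand without HET replicate 1. Median scaling gave 1 lower probe, A_30_P01031980 on the forward strand of chr14:49288962-49413023 (-1.46, adjusted p = 0.00817). Higher probes numbered 13 with background correction, 18 when all 8 arrays had to be above background, and 131 at a fold limit of 1.5, added after seeing the data. At an adjusted p below 0.05 with no fold limit there were 278 higher and 24 lower. Higher combinations numbered 12 with quantile normalisation, 11 with median scaling, 5 with background correction, 4 with no filter and 10 when all 8 arrays had to be above background. No share over all features was counted for these combinations, for the fold limit of 1.5 or with 1 array left out. A length limit of 60000 left 414 combinations and 22 higher probes. The cause of these shifts was not tested. Background correction used the median signal as well as an offset of 50, so their parts cannot be told apart.

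The replicate block gave 18 higher probes and 12 higher combinations. Replicate numbers pair no embryos by the labels, and deviations of same-numbered embryos correlated at 0.19, -0.09, -0.13 and 0.15 for numbers 1 to 4. Of 597 values of 30 named combinations, 542 kept direction and call, 38 lost the call, 3 gained it and 14 changed sign, all 14 of them for combinations that were not called. The 597 values include those of combinations that were not called. Calls were lost by chr5:106982442-107045717 (11 values), chr6:67052066-67119366 (10), chr4:82156098-82196298 (6), chr15:96032592-96116907 (4), chr6:125330524-125410249 (3), chr7:49715933-49771497 (2) and chr1:84947500-85045150 (2). The limma adjusted p reached 0.0402 for chr15:96032592-96116907 and 0.359 for chr1:84947500-85045150. On chr6:116092274-116144199 the reverse strand changed by -0.0353 with quantile normalisation, -0.164 with median scaling, -0.0341 without HOM replicate 4 and -0.0221 without HET replicate 3 (0.0929 at the highest when 1 array was left out). On chr16:8738782-8830148 the reverse strand changed by -0.0113 with median scaling and the forward strand by -0.0539 with no filter. On chr14:33923944-34003394 the forward strand changed by -0.0666 with median scaling, -0.0856 without HET replicate 2 and -0.0715 without HET replicate 4, and by 0.617 at the highest when 1 array was left out. The reverse strand of chr2:168804720-168854970 changed by -0.16 when all 8 arrays had to be above background. With the brightest probe in place of the mean, the changes were -0.18 for the forward strand of chr6:116092274-116144199, 0.0517 for chr13:108548345-108679004, -0.0348 for chr14:77006215-77063293 and -0.16 for chr2:168804720-168854970. Signal over background limits the coverage, since 268 of 694 combinations had no tested probe.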
